A study of Mus musculus with 8 samples.

Results

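The 10 enzymes described here carry methionine and homocysteine through the methionine cycle and transsulfuration, and turn the resulting cysteine into taurine or sulfur transfer products. They are Cth, Cbs, Mat2a, Mat2b, Ahcy, Mtr, Mtrr, Cdo1, Csad and Mpst, taken as a named list by their place in these pathways, with earlier results of these data known, out of 55471 genes counted. RNA was sequenced from pieces of heart of 4 WT mice and 4 TAZG197V mice, 14 weeks old and untreated. TAZG197V mice carried a glycine to valine missense mutation of Tafazzin, the acyltransferase that remodels cardiolipin in mitochondria. The mutation was made in C57BL/6N zygotes by CRISPR/Cas9 and crossed to C57BL/6J for 2 generations. The gene is X-linked, the study worked with hemizygous males, and the change is present in every cell of the animal, so an effect of heart cells cannot be told apart from one of other organs. Each library is named by genotype and number, as WT 1 or TAZG197V 4, and was taken as 1 mouse, because the labels number the samples within a genotype.

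In the methionine cycle, methionine is turned into S-adenosylmethionine, the methyl donor of the cell, then into S-adenosylhomocysteine and homocysteine, and homocysteine is methylated back to methionine. Transsulfuration draws homocysteine out of the cycle through cystathionine to cysteine, from which glutathione, taurine and hydrogen sulfide are made. Both pathways are best known from liver, where transsulfuration is active, while heart muscle is known for a high content of taurine.

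Library totals ran from 23055689 to 36301031 counts. The edited gene Taz was 60.9 ± 2.36 CPM (counts relative to library size, scaled by TMM; SD, n = 4) in WT and 47.3 ± 2.60 in TAZG197V, without overlap (log2 fold change -0.37, SE 0.055, edgeR adjusted p = 0.00124). A point mutation need not change the level of its transcript, so this value does not check the labels. Markers of ventricular muscle were abundant in every library. The sum over 8 markers was 59463 to 68273 CPM in WT and 50666 to 54808 CPM in TAZG197V. The fitted log2 fold change of all 8 was negative, from -0.66 to -0.05. By the thresholds given below, 4 of the 8 were called lower in TAZG197V, where 15.1% of all genes tested were. Some libraries held more transcripts of other tissues. Both number 4 libraries were high in brain markers, WT 2 in atrial, adipocyte and fibroblast markers, and WT 4 in red cell transcripts. In bulk tissue, fewer cells of a type and less RNA per cell cannot be told apart.

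Of the 10 enzymes, 6 changed between genotypes. Cth, Ahcy, Mtrr and Csad rose in TAZG197V hearts, and Mtr and Cdo1 fell. A gene counted as called at an adjusted p under 0.05 in edgeR, a rise of more than 15% or a fall by the same factor, and a mean scaled count of at least 50. Over the 15084 genes tested, 33.5% were called, with 18.5% called higher and 15.1% called lower in TAZG197V. All 10 enzymes were tested, and 7 of them had an adjusted p under 0.05, as did 38.2% of all genes tested. Their median log2 fold change was 0.07, from -1.05 for Cdo1 to 1.98 for Cth, beside a median of -0.01 over all genes tested. The 4 WT values lay entirely apart from the 4 TAZG197V values for Cth, Ahcy and Csad, which were higher, and for Mtr, which was lower, and this held for 33.2% of all genes tested. The count of 6 rested in part on single libraries, since 3 enzymes (Cth, Mtr and Cdo1) were called without WT 1 and the same 3 without TAZG197V 2. Cdo1 was not called without WT 2 or with fewer or other covariates in the model, as described below, while Cth and Mtr were.

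**Figure D1:**
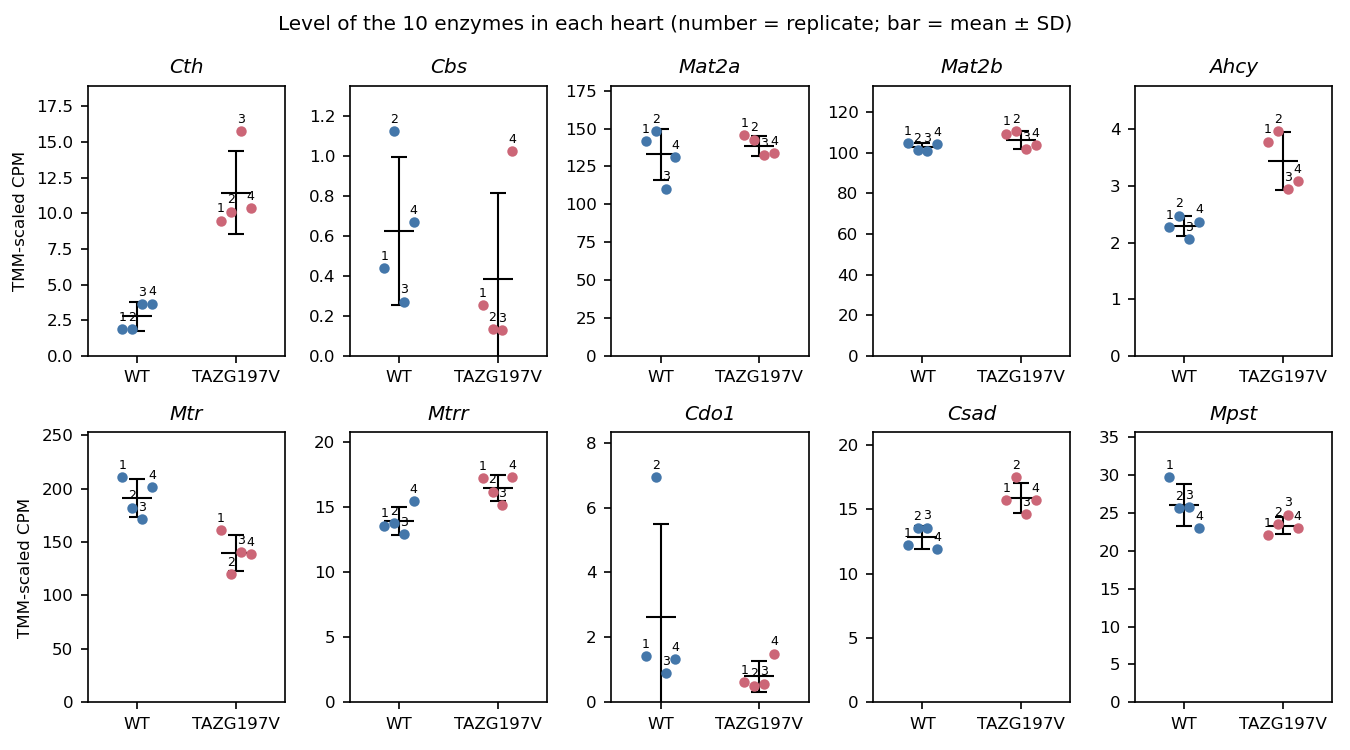
Level of each of the 10 enzymes in TMM-scaled CPM, with 1 panel per gene, a linear axis from 0, WT in blue and TAZG197V in red. Each numbered point is 1 heart and the bar gives the mean ± SD of 4 hearts, with bars that reach below 0 ended at the axis for Cbs and Cdo1. The Cth panel shows all TAZG197V hearts at 9.48 CPM or more and all WT hearts at 3.66 or less, while the Cdo1 panel shows WT 2 alone at 6.93.

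Cth encodes cystathionine gamma-lyase, the enzyme that splits cystathionine into cysteine (ENSMUSG00000028179, chromosome 3, 157894248 to 157925077, minus strand, mm10). Its level was 1.89, 1.90, 3.61 and 3.66 CPM in WT 1 to WT 4 and 9.48, 10.1, 15.8 and 10.4 CPM in TAZG197V 1 to TAZG197V 4. Every TAZG197V heart was above every WT heart, and in both genotypes both libraries of sequencing lane 8 (numbers 3 and 4) were above both of lane 7 (numbers 1 and 2). The counts behind these values ran from 56 to 93 in WT and from 261 to 489 in TAZG197V. Cth rose 3.95-fold in the fit, a log2 fold change of 1.98 (SE 0.220, edgeR adjusted p = 0.000314). The difference of mean log2 CPM was 2.33 in lane 7 and 1.80 in lane 8. It passed the test under all 18 alternative settings, with log2 fold changes from 1.75 to 2.33 and adjusted p-values no higher than 0.00309. Cth had the largest fitted change of the 10 enzymes, although the change of Cdo1 was slightly larger within lane 7 (-2.36) and without TAZG197V 4 (-2.41, against 2.27 for Cth).

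Cbs encodes cystathionine beta-synthase, which joins homocysteine to serine and so commits it to transsulfuration (ENSMUSG00000024039, chromosome 17, 31608894 to 31637238, minus strand). Its level was near the limit of detection, at 0.440, 1.13, 0.272 and 0.670 CPM in WT 1 to WT 4 and 0.254, 0.135, 0.129 and 1.03 CPM in TAZG197V 1 to TAZG197V 4. These values stand for 7 to 41 reads per WT library and 4 to 28 reads per TAZG197V library. The genotypes overlapped, with WT 2 and TAZG197V 4 as the high libraries. The log2 fold change was -0.84 (SE 0.263, edgeR adjusted p = 0.0349), but the mean scaled count of 14.8 was under the minimum and Cbs was not called. The log2 fold change was -1.91 without TAZG197V 4, -1.46 without WT 4 and -0.51 without TAZG197V 3. It was also smaller without WT 2 (-0.56) and without TAZG197V 2 (-0.53). The adjusted p ran from 0.0326 to 0.452 over 16 alternative fits and passed in 5 of them, so a change of Cbs was not resolved at this depth.

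The summed level of 7 brain markers, which include the astrocyte genes Gfap, Slc1a2, Slc1a3 and Aqp4, was 119.5 CPM in WT 4 and 251.4 in TAZG197V 4 but 7.10 to 13.6 CPM in the other 6 hearts. Cbs is known to be expressed by astrocytes. TAZG197V 4 was high in both Cbs and these markers, whereas WT 2, the highest library for Cbs, had a brain marker sum of 13.6 CPM. Between genotypes, 1 of the 5 tested brain markers was called higher and 1 lower. The sum of 5 liver markers was 0.388 to 11.9 CPM in WT and 0.405 to 3.89 CPM in TAZG197V, highest in WT 2 and TAZG197V 4, the libraries with the highest Cbs. Most of it was Cyp2e1 in WT 2, at 11.8 CPM, while Alb was at or near 0 in all libraries and Serpina1a at 0. The sum of 5 kidney markers was 0.0338 to 0.302 CPM in WT, highest in WT 2, and 0.0270 to 0.0727 CPM in TAZG197V, with Umod, Slc34a1 and Kap at 0 in every library. Whether RNA from other tissue contributed to Cbs was not tested.

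Scaling enters the ratio of Cth to Cbs within a library only through the prior count of 2, which is added before taking logs. On the log2 scale the ratio was 2.11 ± 1.12 in WT and 5.03 ± 1.32 in TAZG197V. The difference was 2.92, and it was 3.10 with a prior count of 0.5. The highest WT ratio of 3.44 lay above the lowest TAZG197V ratio of 3.25. An exact permutation test over libraries (two-sided) gave p = 0.0571 and 0.0857 after adjustment over 3 ratios, where the smallest p possible for 4 against 4 is 0.0286.

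Mat2a encodes the catalytic subunit of the methionine adenosyltransferase of tissues outside the liver, which makes S-adenosylmethionine (ENSMUSG00000053907, chromosome 6, 72432799 to 72439558, minus strand). It was the most abundant of the 10 transcripts per length, with 141.7, 148.4, 110.3 and 131.2 CPM in WT 1 to WT 4 and 145.8, 142.7, 132.3 and 133.9 CPM in TAZG197V 1 to TAZG197V 4. The genotypes overlapped, and WT 3 was the lowest library. The log2 fold change was 0.09 (SE 0.0839, edgeR adjusted p = 0.406), and it was -0.0054 without WT 3. Of the exon bases of Mat2a, 11.3% are shared with the antisense gene Particl, and without a stated strand setting the reads of the overlap cannot be told apart.

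Mat2b encodes the regulatory subunit that binds the Mat2a enzyme (ENSMUSG00000042032, chromosome 11, 40679314 to 40695203, minus strand). It had the smallest spread of the 10 enzymes relative to its mean in WT, with a mean of 102.7 ± 1.95 CPM over WT hearts and of 106.3 ± 4.32 over TAZG197V hearts. The log2 fold change of 0.05 (SE 0.0537) did not pass the test in edgeR (adjusted p = 0.533). The log2 ratio of Mat2a to Mat2b was 0.36 ± 0.18 in WT and 0.38 ± 0.023 in TAZG197V, a difference of 0.02 (exact permutation test, two-sided, p = 0.8, also 0.8 after adjustment over the 3 ratios). Neither subunit passed the test under any of the 18 alternative settings.

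Ahcy encodes adenosylhomocysteinase, which cleaves S-adenosylhomocysteine to homocysteine and adenosine (ENSMUSG00000027597, chromosome 2, 155059310 to 155074497, minus strand). Its level was 2.27, 2.47, 2.06 and 2.37 CPM in WT 1 to WT 4 and 3.78, 3.97, 2.94 and 3.08 CPM in TAZG197V 1 to TAZG197V 4. The genotypes did not overlap, and both TAZG197V hearts of lane 7 were above both of lane 8. Ahcy rose 1.51-fold (log2 fold change 0.60, SE 0.167, edgeR adjusted p = 0.0225). It passed in 13 of 18 alternative settings, with an adjusted p of 0.0672 without WT 1, 0.0618 without WT 3, 0.0691 without TAZG197V 1 and 0.0784 without TAZG197V 2 (edgeR), and 0.0505 in DESeq2. Of the 50-base windows of its exons, 68.7% occur in other genes, among them Gm4737, Gm9826, Gm5638 and Gm4913. These copies were counted at 5, 2, 0 and 0 reads over all 8 libraries, so the level of Ahcy, at 53 to 147 reads per library, is uncertain to the extent that reads matching several genes were left uncounted.

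Mtr encodes methionine synthase, which returns the methyl group of methyltetrahydrofolate to homocysteine with cobalamin as cofactor (ENSMUSG00000021311, chromosome 13, 12182712 to 12258113, minus strand). It was 210.3, 182.2, 171.3 and 201.6 CPM in WT 1 to WT 4 and 161.3, 119.8, 140.3 and 138.7 CPM in TAZG197V 1 to TAZG197V 4. All TAZG197V hearts were below all WT hearts, with TAZG197V 2 the lowest. Mtr fell by 0.46 on the log2 scale, to 0.729 of the WT level (SE 0.105, edgeR adjusted p = 0.0103). The difference of mean log2 CPM was -0.49 in lane 7 and -0.41 in lane 8. Mtr passed in all 18 alternative settings, with log2 fold changes from -0.53 to -0.39 and adjusted p-values no higher than 0.0392.

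Mtrr encodes methionine synthase reductase, which reactivates oxidised methionine synthase (ENSMUSG00000034617, chromosome 13, 68560780 to 68582149, minus strand). Its level was 13.6, 13.8, 12.9 and 15.4 CPM in WT 1 to WT 4 and 17.2, 16.2, 15.1 and 17.3 CPM in TAZG197V 1 to TAZG197V 4. WT 4 was slightly above TAZG197V 3, so the genotypes overlapped. Mtrr rose 1.18-fold (log2 fold change 0.24, SE 0.0746, edgeR adjusted p = 0.0361), opposite in direction to its partner Mtr. It passed in 10 of 18 alternative settings, and its adjusted p (edgeR) was 0.0944 without WT 1, 0.0953 without WT 3, 0.0910 without TAZG197V 1 and 0.0973 without TAZG197V 2. It was 0.0620 with lane as the covariate (edgeR) and 0.130 in DESeq2.

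**Figure D2:**
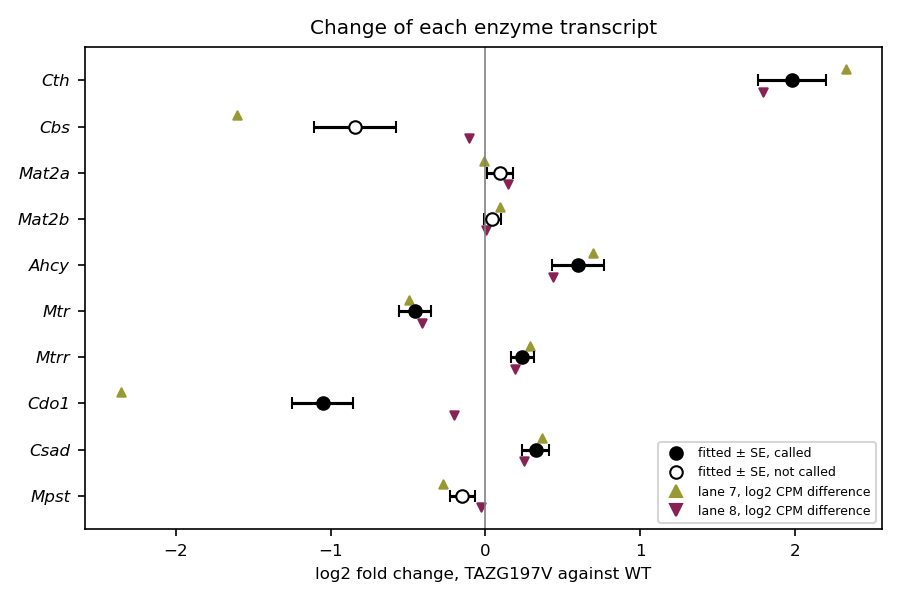
Log2 fold change of each enzyme in TAZG197V against WT. Circles and bars give the fitted value ± SE, filled for the 6 called genes and open for the others, and triangles give the difference of mean log2 CPM between 2 TAZG197V and 2 WT hearts within each sequencing lane. Cth lies far to the right at 1.98, and Cdo1 differs between lanes, at -2.36 in lane 7 and -0.20 in lane 8.

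Cdo1 encodes cysteine dioxygenase, which oxidises cysteine to cysteine sulfinate on the way to taurine and sulfate (ENSMUSG00000033022, chromosome 18, 46713193 to 46728395, minus strand). Its level was 1.42, 6.93, 0.893 and 1.34 CPM in WT 1 to WT 4 and 0.618, 0.513, 0.581 and 1.50 CPM in TAZG197V 1 to TAZG197V 4. WT 2 held most of the signal in WT, TAZG197V 4 stood above the other TAZG197V hearts, and the genotypes overlapped. Cdo1 fell by 1.05 on the log2 scale (SE 0.197, edgeR adjusted p = 0.00391), with a mean scaled count of 50.5, just over the minimum. The difference of mean log2 CPM was -2.36 in lane 7 and -0.20 in lane 8.

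The call of Cdo1 depended on WT 2 and on the covariates. Without WT 2 the log2 fold change was -0.71 and the adjusted p (edgeR) was 0.0794. It was -1.74 with an adjusted p of 0.0899 without surrogate variables and -1.89 with 0.0694 with 1 of them (edgeR). With lane or the replicate number as a block in their place it was -1.52 and -1.36, with adjusted p-values of 0.166 and 0.161 (edgeR). The value was -2.21 without WT 4, -2.41 without TAZG197V 4 and -1.94 without both, all past the test. Without WT 2 and both number 4 libraries, a setting added after the values were seen, it was -1.02 (edgeR adjusted p = 0.0349), with a mean scaled count under the minimum for a call. The summed level of 5 adipocyte markers (Adipoq, Plin1, Cidec, Cfd and Lep) was 3.55, 20.97, 0.272 and 0.804 CPM in WT 1 to WT 4 and 0.182, 0.270, 0.161 and 3.56 CPM in TAZG197V 1 to TAZG197V 4. The high libraries of Cdo1, WT 2 and TAZG197V 4, were also the highest of their genotype in these markers, of which Cfd was called lower and the other 4 were too low to be tested. The liver marker sum was highest in the same libraries, at 11.9 CPM in WT 2 and 3.89 CPM in TAZG197V 4. In WT 2 this sum was mostly Cyp2e1, at 11.8 CPM. Alb was at or near 0 and Serpina1a at 0 in all libraries. The sum of 6 fibroblast markers was 1848 CPM in WT 2, 1139 to 1215 CPM in the other WT hearts and 789.9 to 1148 CPM in TAZG197V, and 3 of the 6 were called lower. Atrial markers, 5 in number, summed to 1093 CPM in WT 2 and to 4.24 to 118.1 CPM in the other WT hearts. In TAZG197V they summed to 28.7 to 130.0 CPM, with 28.8 CPM in TAZG197V 4. Cdo1 is known to be abundant in adipose tissue and liver. The part of RNA from these cell types in the lower level of Cdo1 was not tested.

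**Figure D3:**
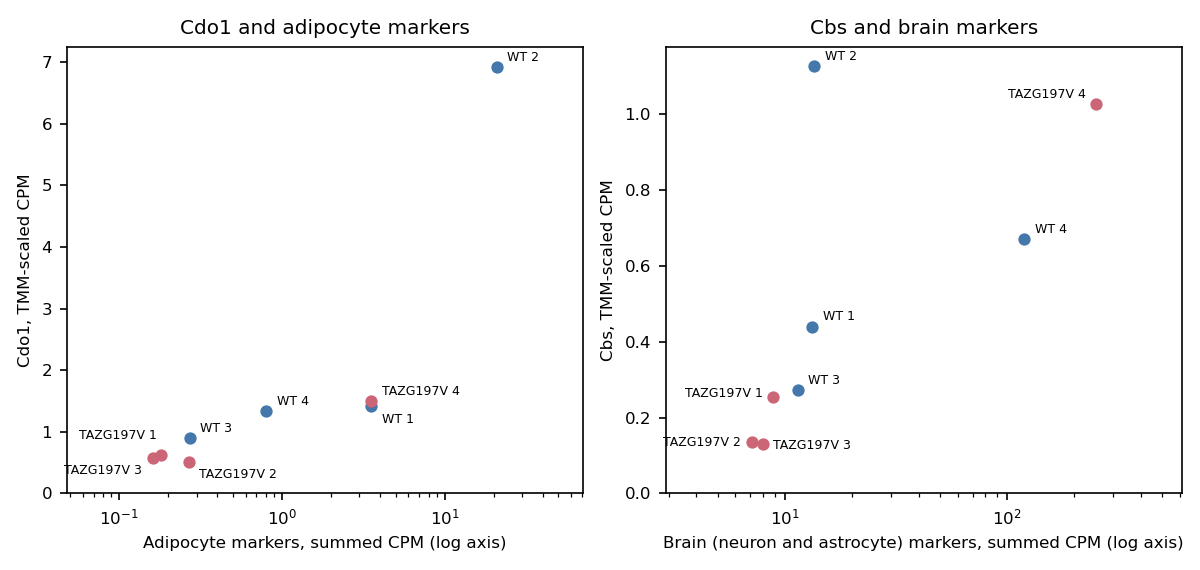
Left, level of Cdo1 against the summed level of 5 adipocyte markers, and right, level of Cbs against the summed level of 7 brain markers, in TMM-scaled CPM with a log horizontal axis. Each point is 1 heart, WT in blue and TAZG197V in red. WT 2 stands alone at 6.93 CPM of Cdo1 and 20.97 CPM of adipocyte markers, and both number 4 libraries stand to the right in brain markers.

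Csad encodes cysteine sulfinic acid decarboxylase, which makes hypotaurine, the precursor of taurine (ENSMUSG00000023044, chromosome 15, 102176999 to 102204724, minus strand). Its level was 12.2, 13.5, 13.6 and 11.9 CPM in WT 1 to WT 4 and 15.7, 17.5, 14.6 and 15.7 CPM in TAZG197V 1 to TAZG197V 4. Every TAZG197V heart was above every WT heart. Csad rose 1.25-fold (log2 fold change 0.32, SE 0.0846, edgeR adjusted p = 0.0175). It passed in 15 of 18 alternative settings, with an adjusted p (edgeR) of 0.0626 without WT 1 and 0.0586 without TAZG197V 2. Its exons share 7.26% of their bases with Zfp740 on the opposite strand, whose reads in the overlap cannot be told apart without a stated strand setting.

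The log2 ratio of Cdo1 to Csad, the steps that make and decarboxylate cysteine sulfinate, was -2.73 ± 1.23 in WT and -4.32 ± 0.687 in TAZG197V. The difference of -1.59 had p = 0.0571 by an exact permutation test over libraries (two-sided) and 0.0857 after adjustment over the 3 ratios, with 0.0286 as the smallest p possible. It was -0.997 without WT 2.

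Mpst encodes 3-mercaptopyruvate sulfurtransferase, which passes sulfur from a product of cysteine to acceptors and gives rise to hydrogen sulfide (ENSMUSG00000071711, chromosome 15, 78406416 to 78414013, plus strand). Its level was 29.6, 25.6, 25.7 and 22.9 CPM in WT 1 to WT 4 and 22.0, 23.5, 24.8 and 23.0 CPM in TAZG197V 1 to TAZG197V 4. The genotypes overlapped, and WT 1 was the highest library. The log2 fold change of -0.15 (SE 0.0839) did not pass the test in edgeR (adjusted p = 0.194), nor in any of the 18 alternatives.

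Per kilobase of exon, the levels of the 10 transcripts in WT hearts spanned a wide range. Mat2a was at 29.6 ± 3.71 CPM per kb, Mtr at 22.4 ± 2.09 and Mat2b at 20.5 ± 0.389, and neighbours in this order overlapped. Mpst followed at 12.1 ± 1.28 CPM per kb, without overlap on either side. Csad was at 3.34 ± 0.226 CPM per kb and Mtrr at 2.68 ± 0.207, which did not overlap. Cth at 0.991 ± 0.360 CPM per kb overlapped with Ahcy at 0.817 ± 0.0630. The place of Ahcy in this order is uncertain, since 68.7% of its 50-base windows occur in other genes. Reads matching several genes may have been left uncounted, while all its exon bases entered the length. Cdo1 at 1.61 ± 1.74 CPM per kb ran from 0.543 to 4.21 and overlapped with Csad, Mtrr, Cth and Ahcy, but its place rested on WT 2. Without WT 2 it was 0.741 ± 0.173 CPM per kb (n = 3), under the means of Cth (1.09) and Ahcy (0.795) in the same hearts. Cbs was lowest at 0.0838 ± 0.0496, without overlap with Ahcy. In TAZG197V hearts Cth reached 4.10 ± 1.05 CPM per kb, beside Csad at 4.14 ± 0.307, and Mtr at 16.4 ± 1.99 stood below Mat2b at 21.2 ± 0.865. Both subunits for S-adenosylmethionine synthesis were among the 3 most abundant transcripts in either genotype, and Cbs was the lowest in both.

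Genes around the 10 enzymes were grouped in 6 lists of 63 genes, of which 58 were tested. In all, 22 were called higher and 18 lower in TAZG197V, where 18.5% and 15.1% of all genes tested were, and their median log2 fold change was 0.13, beside -0.01 over all genes tested. The lists were chosen with earlier results known, so the counts below, each to be read against these shares, describe the lists only.

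Of 9 transporters of sulfur amino acids, taurine and related amino acids tested, 6 rose and 2 fell, with a median log2 fold change of 0.57. Slc7a11, the cystine importer, was 0.207 ± 0.236 CPM in WT and 14.6 ± 3.98 in TAZG197V (log2 fold change 6.08, SE 0.477, edgeR adjusted p = 5.82e-05). Its partner Slc3a2 rose by 1.78 on the log2 scale, the large neutral amino acid transporter Slc7a5 by 4.06 and the neutral amino acid transporter Slc1a4, which carries serine, by 2.62. The glutamine transporter Slc1a5 and the taurine transporter Slc6a6 fell by 0.66 and 0.39 on the log2 scale. The genotypes overlapped for Slc6a6, whose difference of mean log2 CPM was -0.13 in lane 7 and -0.52 in lane 8.

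Among 11 genes of glutathione synthesis and breakdown, 5 rose and 5 fell. Chac1, which degrades glutathione in the cytosol, was 5.03 ± 1.68 CPM in WT and 70.6 ± 14.1 in TAZG197V (log2 fold change 3.91, SE 0.214, edgeR adjusted p = 9.77e-06). Gss, glutathione synthetase, rose by 1.22 on the log2 scale, and Lap3, a peptidase that cleaves cysteinylglycine, by 0.70. Chac2, a paralog of Chac1, fell by 0.87 on the log2 scale. Both subunits of the rate-limiting enzyme of glutathione synthesis rose, Gclc by 0.37 and Gclm by 0.60 on the log2 scale, although their WT and TAZG197V values overlapped. The other lower genes were Dpep1, which cleaves cysteinylglycine (-0.58), Oplah, which opens oxoproline (-0.56), Ggt5 (-0.37) and Ggct (-0.26), and the genotypes overlapped for Ggt5 and Ggct.

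In the methionine cycle and salvage list, 7 of 12 tested genes rose and 1 fell, with a median log2 fold change of 0.26. Gnmt, which uses S-adenosylmethionine to methylate glycine, was 1.39 ± 0.183 CPM in WT and 3.93 ± 0.905 in TAZG197V (log2 fold change 1.49, SE 0.229, edgeR adjusted p = 0.00153). Spermidine synthase Srm rose by 1.05 on the log2 scale and Mtap, which starts methionine salvage, by 0.56, and Adi1, a later salvage enzyme, fell by 0.52. Bhmt, the betaine route from homocysteine to methionine, and its relative Bhmt2 were at 0 counts in every library, and Mat1a, the liver enzyme for S-adenosylmethionine, had 0 to 2 counts per library.

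Of 8 genes that handle cobalamin, 1 rose and 2 fell, a share near that of all genes tested (33.5%), with a median log2 fold change of -0.09. Mut (methylmalonyl-CoA mutase) and Mmab (adenosylcobalamin synthesis) fell by 0.49 and 0.46 on the log2 scale, and Mmadhc, which directs cobalamin between cytosol and mitochondria, rose by 0.23. Of 9 methyltransferases that use S-adenosylmethionine on small molecules, 2 rose and 4 fell, with a median of -0.37. Hnmt, which methylates histamine, was 13.0 ± 1.85 CPM in WT and 1.99 ± 0.685 in TAZG197V (log2 fold change -2.75, SE 0.151, edgeR adjusted p = 9.77e-06). Pemt, which makes phosphatidylcholine from phosphatidylethanolamine, rose by 1.92 on the log2 scale. Gamt, the last enzyme of creatine synthesis, and Inmt, which methylates indolamines, fell by 0.96 and 1.16 on the log2 scale. The genotypes overlapped for Inmt, whose difference of mean log2 CPM was -2.04 in lane 7 and -0.43 in lane 8.

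Of 9 tested genes of cysteine and sulfide oxidation and taurine synthesis, 1 rose and 4 fell, with a median log2 fold change of -0.21. Got1, the cytosolic aspartate aminotransferase, which also acts on cysteine sulfinate, was 818 ± 89.9 CPM in WT and 1443 ± 34.7 in TAZG197V (log2 fold change 0.79, SE 0.0687, edgeR adjusted p = 9.88e-05). The mitochondrial enzymes Sqor (sulfide oxidation) and Suox (sulfite oxidation) fell by 0.40 and 0.35 on the log2 scale, and Selenbp1, a methanethiol oxidase, by 0.61. Got2 fell by 0.34.

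**Figure D4:**
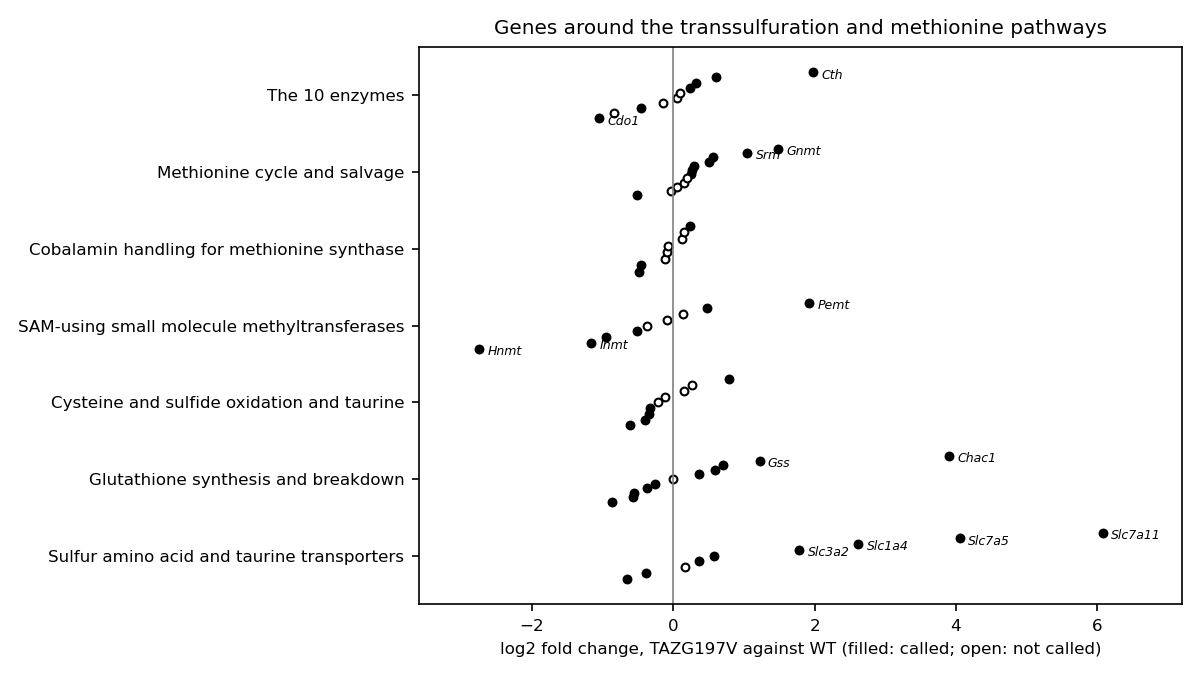
Fitted log2 fold change of every tested gene of the 10 enzymes and of the 6 related lists in TAZG197V against WT, with genes past a change of 1 named. Filled circles are called genes and open circles are not called, and the vertical spread within a list only separates the points. The points furthest to the right are Slc7a11 at 6.08, Slc7a5 at 4.06 and Chac1 at 3.91, and the point furthest to the left is Hnmt at -2.75.

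Promoter sequences were taken from RefSeq on GRCm38.p6, as the 250 bases before and 50 bases after each gene start. They were searched on both strands for TGATGNAA, which covers the composite site known to be bound by ATF4 with a CEBP partner. Of the 10 enzymes, 8 had an entry and 0 of these held the motif, and Cth and Cdo1 were not in the table. Of the 23 related genes with the largest changes of their lists, up to 4 per list, 18 had an entry and 5 held it (Got1, Sqor, Chac1, Slc7a11 and Slc1a4). Over all 27025 genes with an entry 4.51% held it, a share that is no test of the 23, since they were picked by size of change, and the other related genes were not searched. Stretches of 60 bases around the motif, each wholly before the gene start, are shown for 4 of these and not for Slc1a4. The sequences run 5′ to 3′ on the strand of the gene, with the motif in capitals. Got1 is at chr19:43524674-43524733 (minus), Sqor at chr2:122771544-122771603 (plus), Chac1 at chr2:119351023-119351082 (plus) and Slc7a11, with 2 matches, at chr3:50443646-50443705 (minus).
Got1: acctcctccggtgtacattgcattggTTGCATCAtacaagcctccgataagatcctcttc
Sqor: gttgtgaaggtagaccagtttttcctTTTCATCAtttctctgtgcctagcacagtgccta
Chac1: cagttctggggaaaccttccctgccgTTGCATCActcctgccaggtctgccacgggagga
Slc7a11: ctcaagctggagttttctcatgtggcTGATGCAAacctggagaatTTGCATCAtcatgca

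Got1, Chac1, Slc7a11 and Slc1a4 rose and Sqor fell, so genes with these letters moved in both directions. The letters CCAAT (reverse complement ATTGG), searched after the values were seen, were found in 7 of the 8 enzymes with an entry, all but Mpst, in 13 of the 18 related genes searched above, and in 41.1% of all genes. The 150 bases before the start are shown for Mtr and Mtrr, a pair that act on the same reaction and moved in opposite directions, with CCAAT or its reverse complement in capitals, 5′ to 3′ on the strand of the gene. Mtr is at chr13:12258114-12258263 (minus) and Mtrr at chr13:68582170-68582319 (minus).
Mtr: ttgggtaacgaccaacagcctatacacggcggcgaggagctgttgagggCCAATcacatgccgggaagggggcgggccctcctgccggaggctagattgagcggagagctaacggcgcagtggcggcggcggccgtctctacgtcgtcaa
Mtrr: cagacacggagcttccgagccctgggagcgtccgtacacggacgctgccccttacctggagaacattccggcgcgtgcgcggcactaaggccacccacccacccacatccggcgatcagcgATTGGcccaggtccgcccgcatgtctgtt
Both sequences hold these letters, and they differ in where the letters stand relative to the start.

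For each called enzyme, the genes most alike were ranked by Pearson's r of log2 CPM over the 8 libraries, a description in which all points share the genotype difference. For Cth these were Reep6 (r = 0.993), the cell cycle inhibitor Cdkn1a (0.989) and Rpl36al (0.986). For Mtr they were Numa1 (0.984), Zfp263 (0.981) and the cardiac myosin heavy chain gene Myh6 (0.981). For Cdo1 they were Ppp1r1b (0.979), Scara3 (0.978) and the collagen gene Col12a1 (0.977). Ahcy was most like Cnppd1, Vipas39 and Rufy4, Mtrr like E2f3, Cand1 and the branched-chain aminotransferase gene Bcat1, and Csad like BC031181, Slc37a3 and Ccdc130, with r from 0.972 to 0.992. Ranked instead by deviations from the genotype means, which leave the genotype difference out, the nearest genes to Cth were Rnf152 (0.978), Ccl6 (0.965) and the clock gene Arntl (0.964). None of the 3 genes nearest to Cth was the same under both measures, while Zfp263 for Mtr, Col12a1 for Cdo1 and BC031181 for Csad were.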

How the data were processed

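RNA was sequenced from heart pieces of 4 WT and 4 TAZG197V mice. As the study's methods and the labels state, the authors obtained reads with bcl2fastq 2.20.0, checked them with FastQC 0.11.9, aligned them to mm10 with STAR 2.7.3a and counted reads over exons with featureCounts of Subread 2.0.0. The deposited files hold raw counts, 1 whole number for each Ensembl gene. Annotation release, strand setting and the treatment of multi-mapping reads were not given in the sources used here. The 92 spike-in rows summed to 0 and were left out. Symbols and positions came from GENCODE M21 on GRCm38, the assembly of mm10, in which 55230 of 55471 gene IDs had a symbol (Mmut is listed there as Mut).

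The analysis used edgeR 4.0.16 in R 4.3.3. filterByExpr kept 15084 genes, and libraries were scaled by TMM. The effect of genotype was tested by the quasi-likelihood F-test (two-sided) in a model with 2 surrogate variables from svaseq (sva 3.50.0, genotype protected), and p-values were adjusted over the 15084 genes by Benjamini-Hochberg. The SE is the size of the log2 fold change divided by the square root of F. Log2 CPM used a prior count of 2. Called genes had an adjusted p under 0.05, a fold change beyond 1.15 and a mean scaled count of at least 50. Ratios of enzymes were compared with the exact permutation test of scipy 1.17.1. The procedure was tested on simulated counts.

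The 10 enzymes, the lists and the tests were chosen with earlier results of these data known. The text names Taz, the 10 enzymes, mainly up to 4 called genes per related list with the largest change, the genes most correlated with each called enzyme, markers, and genes sharing sequence with an enzyme. Gclc, Gclm, Dpep1, Oplah, Ggt5, Ggct, Got2, Slc1a5, Slc6a6 and the undetected Bhmt, Bhmt2 and Mat1a were named after their values were seen. Alternatives were DESeq2 1.42.0, its size factors, 0 or 1 surrogate variables, lane or replicate number as covariates, no low-count filter, no mitochondrially encoded genes, other thresholds for a call and omission of libraries. Libraries of a genotype differed beyond counting noise (chi-square per gene at least 10.2). Reads carried no molecular identifiers.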

Additional observations from a re-analysis of the deposited data

Results flagged for a closer look

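Within a genotype of 4 libraries, the gap between the highest or lowest library and the next one was divided by the range of all 4 on the log2 scale. Of 50 sets of 4 libraries checked over the enzymes, Taz, enzyme ratios and marker lists, 7 passed Dixon's 95% critical value for 4 samples, where chance gives about 1 in 20 (2.5 sets).

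Among the 10 enzymes, this was so only for Cdo1 in TAZG197V 4, which stood above the other 3 TAZG197V hearts by 0.833 of the range. In the same library the adipocyte markers stood apart by 0.935 and the brain markers by 0.943. The brain markers also stood apart in WT 4, at 0.929. The fibroblast markers were high in WT 2 (0.866), the endothelial markers in WT 3 (0.940) and the macrophage markers in TAZG197V 3 (0.918). How far these differences between hearts bear on the enzymes was not tested.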

How the results depend on the processing

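Cth, Mtr and Taz kept their direction and passed the test in all 18 alternative fits, and Mat2a, Mat2b and Mpst passed in none. The log2 fold change of Mat2a reversed to -0.0054 without WT 3 (range -0.0054 to 0.16 with 1 library left out), and the log2 ratio of Mat2a to Mat2b to -0.0568. The number of enzymes called was 3 to 6 with 1 library left out, 3 at a fold change of at least 1.5, 4 with DESeq2 or lane, and 3 without WT 2 and both number 4 libraries, a setting chosen after seeing the data. Without a minimum mean count it was 7, with Cbs added as lower. At a fold change of at least 1.5, 1843 genes were called (998 higher and 845 lower) and 18 related genes. With 1 library left out, 3675 to 4816 genes and 32 to 38 related genes were called. The difference of log2 ratios ran from 2.46 to 3.51 for Cth to Cbs, from -0.0568 to 0.0848 for Mat2a to Mat2b and from -1.95 to -0.997 for Cdo1 to Csad with 1 library left out.

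Same-numbered libraries correlated at 0.277, 0.0436, 0.28 and 0.416 in their deviations from the genotype means, and libraries of different numbers at -0.464 to 0.317. Not every same-numbered pair exceeded 0.1 and the labels state no pairing, so the numbers were not taken to pair the mice. With the replicate number as a block, 4272 genes and 5 of the 10 enzymes were called, without Cdo1 (-1.36, edgeR adjusted p = 0.161). The cause of these changes was not tested. Cbs stood on 4 to 41 reads per library and Cdo1 on 17 to 252.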
